A study of Mus musculus with 6 samples.

Results

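The genes described here are the 5 subunits of the transcription factor NF-kB (Nfkb1, Nfkb2, Rel, Rela and Relb), 4 genes of the IkB family (Nfkbia, Nfkbib, Nfkbie and Nfkbiz) and Tnfaip3, which encodes A20. They were picked by name, 10 of the 45706 genes in the deposited count table, and all 10 passed the filter on low counts that left 15184 genes for testing. RNA was sequenced from LSK cells, the Lin- Sca-1+ c-Kit+ fraction of bone marrow that holds hematopoietic stem cells and multipotent progenitors, to ask which transcripts change soon after loss of Setd1b, an H3K4 methyltransferase. All 6 donors were male C57BL/6 mice that carried 1 Rosa26-Cre-ERT2 allele (RC/+), from which tamoxifen-activated Cre is made in almost every tissue, so that Setd1b loss was not restricted to the sorted cells. Ctrl mice (FD/+; RC/+, n = 3) had 1 conditional Setd1b allele and cKO mice (FD/FD; RC/+, n = 3) had 2, and both groups received 4.5 mg tamoxifen per day by gavage and were sacrificed 3 days after the last dose. The labels give 4 days of gavage, a pause of 3 days and 2 further days, and the methods of the study give another number of doses. The Ctrl mice thus also carried Cre and 1 recombinable allele and were exposed to tamoxifen. Mice were 16 weeks old except for cKO mouse AH74, which was 17 weeks old, and each mouse gave 1 library.

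Libraries held between 13003573 and 21277519 counts. By the library numbers in the table header they fell into 2 series, named as batches neither by the labels nor by the methods of the study. Ctrl mouse AI03 and cKO mice AI02 and AI55 were in the first, and Ctrl mice AI54 and AI56 and cKO mouse AH74 were in the second. Between 4.45% and 5.30% of the counts of a first-series library fell on Gm42418 and Gm26917, against 7.52% to 9.04% in the second. Setd1b, the targeted gene, was counted at 221, 194 and 223 CPM (counts scaled by the TMM library size) in Ctrl mice AI03, AI54 and AI56 and at 314, 272 and 289 CPM in cKO mice AH74, AI02 and AI55. It was thus higher in the libraries labelled cKO (log2 fold change 0.46, adjusted p = 0.00146 with edgeR). The deletion removes only exon 5 of the gene, so that counts over the whole gene cannot check it, and cKO stands below for the mice and libraries labelled so, with all directions drawn from these labels. All 10 markers of the LSK gate and of stem cells were detected, with a summed level of 1375 to 1542 CPM in Ctrl and 1400 to 1498 CPM in libraries labelled cKO. In sorted bulk cells, fewer cells of a type and less RNA per cell cannot be told apart.

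NF-kB is a dimer of Rel family proteins that is held inactive by IkB proteins until signals from cytokine and Toll-like receptors lead to their phosphorylation and degradation. The precursors p105 (Nfkb1) and p100 (Nfkb2) have IkB-like repeats of their own and are processed to p50 and p52, whereas Rela, Rel and Relb carry transactivation domains. Nfkbia, Nfkbie and Tnfaip3 are textbook NF-kB targets that feed back on the pathway, so that a cell with active NF-kB also makes its brakes. In hematopoietic stem and progenitor cells the pathway is known for its part in emergency myelopoiesis and in stem cell maintenance.

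NF-kB binds the kB consensus, and the sequences before the start sites are shown because feedback by NF-kB on its own inhibitors is known to run through such sites. RefSeq promoters (GRCm38.p6, 250 bases before to 50 after the start, 10 promoters in all) were given for 7 of the 10 genes and none for Nfkb1, Relb and Nfkbiz. The consensus was found on either strand in 5 of the 7 genes, namely Nfkb2, Rel, Nfkbia, Nfkbie and Tnfaip3, and in none of the windows of Rela and Nfkbib. It was found in 5.14% of the 27025 genes of that promoter table and in 6.10% of the 9846 tested genes with an entry. In the following stretches, written 5′ to 3′ on the strand of the gene, capitals mark the match, and overlapping matches on both strands are joined.
Nfkbie (chr17:45555450-45555699, plus strand): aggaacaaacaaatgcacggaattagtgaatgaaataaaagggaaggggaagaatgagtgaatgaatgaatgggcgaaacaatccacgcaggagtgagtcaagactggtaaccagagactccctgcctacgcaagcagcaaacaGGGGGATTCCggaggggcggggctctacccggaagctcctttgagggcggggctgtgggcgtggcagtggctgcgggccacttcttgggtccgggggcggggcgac
Nfkbia (chr12:55492648-55492897, minus strand): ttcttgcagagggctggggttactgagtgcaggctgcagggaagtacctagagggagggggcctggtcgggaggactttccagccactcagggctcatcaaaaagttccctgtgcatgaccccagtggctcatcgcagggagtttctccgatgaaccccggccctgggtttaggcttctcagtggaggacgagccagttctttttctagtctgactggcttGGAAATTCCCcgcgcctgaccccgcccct
Rel (chr11:23770971-23771219, minus strand): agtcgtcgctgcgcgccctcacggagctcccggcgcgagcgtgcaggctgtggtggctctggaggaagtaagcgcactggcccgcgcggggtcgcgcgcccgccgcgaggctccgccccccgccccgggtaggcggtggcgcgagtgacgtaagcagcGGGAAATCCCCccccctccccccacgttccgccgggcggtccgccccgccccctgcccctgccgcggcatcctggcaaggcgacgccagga
Tnfaip3 (chr10:19015411-19015540, minus strand): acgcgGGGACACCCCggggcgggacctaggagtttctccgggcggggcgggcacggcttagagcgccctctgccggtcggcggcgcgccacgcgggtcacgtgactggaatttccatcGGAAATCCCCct
Nfkb2 (chr19:46304692-46304721, plus strand): cgtcacGGGAATTCCCCccctcggggggcc
The stretches of Nfkbie, Nfkbia and Rel lie outside the annotated gene bodies, that of Tnfaip3 lies in the first intron of a longer transcript of the gene, and that of Nfkb2 lies in the first exon of a longer transcript, opposite to an exon of AC114539.1. The match began 106 bases before the start in Nfkbie, 29 in Nfkbia and 92 in Rel. Tnfaip3 had 2 matches, which began 125 and 12 bases before its start, and the first Nfkb2 promoter had one 39 and another 11 bases before its start. Such a match is a stretch of letters, not a measured binding site.

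**Figure D1:**
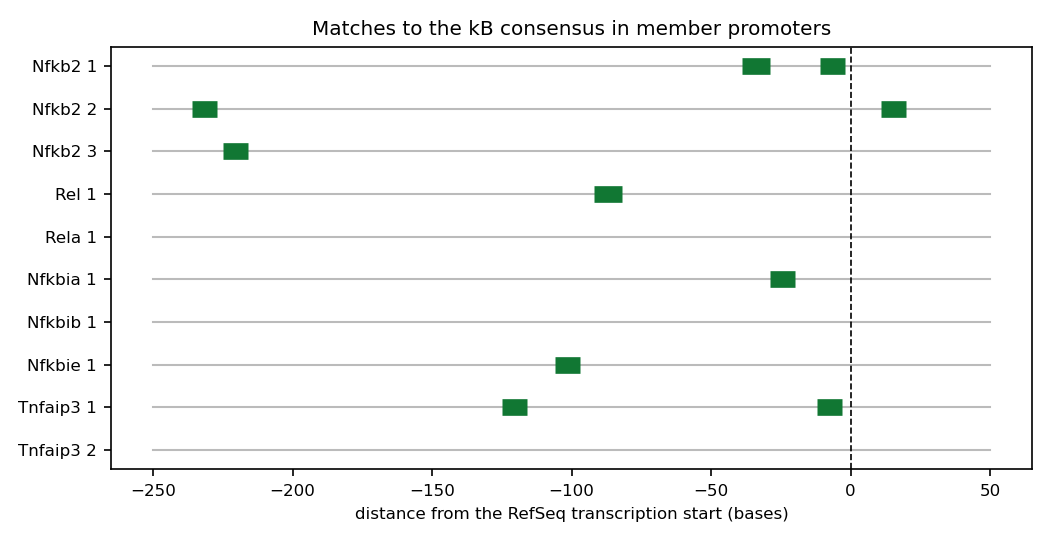
Position of kB consensus matches (green boxes) in each RefSeq promoter of the members, with the distance from the transcription start in bases on the horizontal axis and promoters numbered per gene. Matches sit in promoters of Nfkb2, Rel, Nfkbia, Nfkbie and Tnfaip3, and the lines of Rela, Nfkbib and the second Tnfaip3 promoter hold none.

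Of the members, Rela had the highest level per exon length and Relb the lowest. This length joins all annotated exons of a gene, 12061 bases for Nfkb1 and 2716 for Rela, and the order depends on it. In CPM, which take no account of length, Nfkb1 was above Rela (means of 178 and 112 CPM). Levels are given below as TPM, counts per exon length scaled to 1 common sum in each library. Rela, the transactivating partner in the common heterodimer, had a mean of 51.7 TPM over the 6 libraries. It lay at the 91.3 percentile of the tested genes. It was followed by Nfkbia with 28.8, Nfkb1 with 18.5, Nfkbib with 15.3 and Nfkbie with 14.3 TPM. Nfkb2 had 10.9, Rel 8.29, Nfkbiz 5.33, Tnfaip3 3.04 and Relb 1.71 TPM, the last at the 18.7 percentile. The ranges of neighbours in this order did not overlap for Rela and Nfkbia, Nfkbia and Nfkb1, Nfkbiz and Tnfaip3, and Tnfaip3 and Relb. They overlapped for the other 5 neighbouring pairs, and the order of Nfkbib and Nfkbie held in only 4 of 6 mice. Among the subunits, Rela made up 55.1% to 58.9% of the summed TPM in each library. The order was the same by RPKM, which uses the same counts and lengths and is therefore no separate check.

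**Figure D2:**
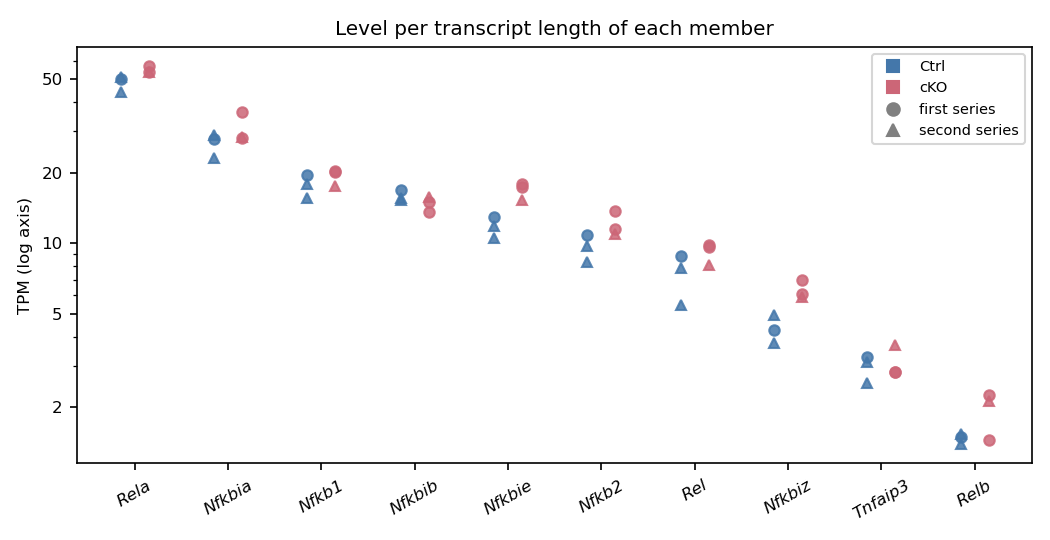
Level per length (TPM, logarithmic axis) of each member in each library, ordered by the mean over all 6 libraries, with Ctrl in blue, cKO in red, the first library series as circles and the second as triangles. The levels run from a mean of 51.7 TPM for Rela to 1.71 TPM for Relb. Rela, Nfkbie, Nfkb2 and Nfkbiz have all red points above all blue ones on this scale, which has no TMM factor. The share of all genes that do so in TPM was not computed, and Rela overlaps between the groups in CPM.

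The 10 genes were compared between genotypes in a fit over all 15184 genes. Higher levels in the libraries labelled cKO passed the threshold for 2 of the 10, Nfkbie and Nfkbiz, with edgeR and with DESeq2. At an unadjusted p under 0.05 with edgeR, Rel and Nfkb2 were higher as well. None of the 10 was lower past the threshold with either test or at an unadjusted p under 0.05. Among all genes tested, 3.88% were called higher and 3.79% lower, in numbers 589 and 575, and at an unadjusted p under 0.05 it was 11.3% higher and 11.5% lower. Removal of a trend with gene length shifted this split to 525 higher and 856 lower. For 4 of the 10, Nfkb2, Rel, Nfkbie and Nfkbiz, every library labelled cKO lay above every Ctrl library, as it did for 14.0% of all genes, and for none did all lie below, as for 13.4% of all genes. The fitted change was positive in 5 of 5 subunits and in 4 of 5 inhibitors, beside 50.1% of all genes tested. The 4 IkB genes and Tnfaip3 are called inhibitors here, and Tnfaip3 counts as positive at only 0.0036. The medians were 0.25 and 0.14 on the log2 scale, and the median over all genes tested was 0.0002. The sign of Nfkb1 turned after removal of the length trend, and that of Tnfaip3 turned under several settings. Nfkbie is also in a list of NF-kB genes that the study drew from these libraries, and for it this is no independent evidence.

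Nfkbie, which encodes IkBε, an inhibitor that is resynthesized after NF-kB activation, was counted at 23.6, 22.3 and 24.5 CPM in Ctrl mice AI03, AI54 and AI56. It was counted at 32.1, 30.6 and 32.5 CPM in cKO mice AH74, AI02 and AI55. All 3 libraries labelled cKO were above all 3 Ctrl libraries, with a gap wider than the range within either group. The means were 23.5 ± 1.11 and 31.7 ± 0.967 CPM (SD, n = 3 each), and the log2 fold change of 0.43 (SE 0.0988, 95% interval 0.22 to 0.65) had an adjusted p of 0.0136 with edgeR. The difference was 0.41 within the first library series and 0.45 within the second. It missed the threshold when Ctrl mouse AI54 was left out (log2 fold change 0.40, adjusted p = 0.0561) and likewise when cKO mouse AI55 was (0.42, adjusted p = 0.0674). The gene (ENSMUSG00000023947) lies on chromosome 17 from 45555716 to 45563169 in the table, on GRCm38.

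Nfkbiz encodes IkBζ, a nuclear IkB protein that acts as a cofactor of p50 homodimers on a subset of target genes rather than as a cytoplasmic brake. Its counts were 16.1, 19.3 and 18.0 CPM in Ctrl mice AI03, AI54 and AI56 and 25.7, 22.2 and 26.2 CPM in cKO mice AH74, AI02 and AI55. The groups did not overlap, with the lowest library labelled cKO, from mouse AI02, above the highest Ctrl library, from mouse AI54. The means were 17.8 ± 1.59 CPM in Ctrl and 24.7 ± 2.19 CPM in libraries labelled cKO (SD, n = 3 each), and the fitted log2 fold change was 0.47 (SE 0.119, 95% interval 0.21 to 0.72, adjusted p = 0.0273 with edgeR). Within the first series the difference was 0.57, and within the second it was 0.46. The threshold was not passed without Ctrl mouse AI03 (0.40, adjusted p = 0.0740), Ctrl mouse AI56 (0.47, 0.0801), cKO mouse AH74 (0.43, 0.0901) or cKO mouse AI55 (0.42, 0.126). The gene (ENSMUSG00000035356) lies on chromosome 16 from 55811375 to 55838899.

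The other inhibitors did not pass the threshold. Nfkbia, which encodes IkBα and whose promoter holds the match shown above, was counted at 33.1, 35.5 and 34.8 CPM in Ctrl mice AI03, AI54 and AI56. In cKO mice AH74, AI02 and AI55 it was at 38.9, 32.4 and 42.8 CPM, so that mouse AI02 was below every Ctrl mouse and the other two were above. Its log2 fold change was 0.14 (SE 0.106, 95% interval -0.08 to 0.37, adjusted p = 0.474), and it was 0.17 in the first series and 0.15 in the second. Nfkbib, which encodes IkBβ, another cytoplasmic inhibitor, had 27.6, 26.2 and 31.9 CPM in the same Ctrl mice and 29.5, 23.7 and 22.0 CPM in the same cKO mice. It was the only member with a negative fitted change (log2 fold change -0.19, SE 0.125, 95% interval -0.45 to 0.08, adjusted p = 0.409). The groups overlapped, and the 2 low libraries labelled cKO were those of the first series, where the difference was -0.27, against 0.03 in the second.

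Within the summed TPM of the cytoplasmic IkB genes Nfkbia, Nfkbib and Nfkbie, Nfkbie made up 22.4%, 21.0% and 21.6% in Ctrl mice AI03, AI54 and AI56. It made up 25.7%, 28.6% and 26.5% in cKO mice AH74, AI02 and AI55. The Nfkbie share did not overlap between the genotypes. That of Nfkbib did not either and was lower, at 27.55% to 31.34% in Ctrl and 20.01% to 26.42% in libraries labelled cKO. The Nfkbia share overlapped. These shares depend on one another, so that a lower Nfkbib share by itself raises that of Nfkbie. The summed TPM of these IkB genes per summed TPM of the subunits overlapped, with 0.635 to 0.654 in Ctrl and 0.588 to 0.703 in libraries labelled cKO. All of these values are descriptions that rest on the same counts as the tests above, and nothing like them was computed over all genes.

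Tnfaip3 encodes A20, the ubiquitin-editing enzyme that ends signaling from the TNF receptor. It was nearly the same in the 3 Ctrl mice, at 17.8, 17.4 and 17.7 CPM, and spread widely in cKO mice AH74, AI02 and AI55, at 23.1, 14.9 and 15.2 CPM. Mouse AH74 was above all Ctrl mice and the other two were below them. The log2 fold change was 0.00 (0.0036, SE 0.157, 95% interval -0.33 to 0.34, adjusted p = 0.994 with edgeR) with -0.24 in the first series and 0.39 in the second. Mouse AH74 was the only one aged 17 weeks and also the only cKO mouse of the second series. Without this mouse the log2 fold change was -0.23 (adjusted p = 0.365 with edgeR). The 95% interval of Tnfaip3 overlapped those of Nfkbie (0.22 to 0.65) and Nfkbiz (0.21 to 0.72). A difference between the genes was not tested.

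None of the subunits passed the threshold with edgeR or DESeq2, and 2 of 5 were higher at an unadjusted p under 0.05, as were 11.3% of all genes. Rel, which encodes the transactivating subunit c-Rel, came nearest, with 49.9, 45.2 and 39.2 CPM in Ctrl mice AI03, AI54 and AI56 and 52.2, 53.5 and 53.8 CPM in cKO mice AH74, AI02 and AI55. The groups did not overlap, and the libraries labelled cKO lay close together. The log2 fold change was 0.25 (SE 0.0928, 95% interval 0.05 to 0.45, unadjusted p = 0.0169 and adjusted p = 0.121 with edgeR), with 0.11 in the first series and 0.31 in the second. Nfkb2, the p100 precursor of the non-canonical pathway, had 27.1, 24.8 and 26.2 CPM in the same Ctrl mice and 31.3, 33.0 and 28.3 CPM in the same cKO mice. The groups did not overlap here either, with a log2 fold change of 0.25 (SE 0.102, 95% interval 0.03 to 0.46, unadjusted p = 0.0287 and adjusted p = 0.161 with edgeR). The difference of Nfkb2 was 0.17 in the first series and 0.29 in the second. In none of the 13 alternative settings did either pass the threshold, the lowest adjusted p of Rel being 0.0529 and that of Nfkb2 0.155.

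Rela was counted at 103, 108 and 115 CPM in Ctrl mice AI03, AI54 and AI56 and at 127, 113 and 109 CPM in cKO mice AH74, AI02 and AI55. The groups overlapped, mouse AH74 being the highest (log2 fold change 0.10, SE 0.0743, 95% interval -0.06 to 0.26, adjusted p = 0.461). Nfkb1, which encodes p105 and p50, varied little, with 178, 168 and 180 CPM in Ctrl and 184, 177 and 182 CPM in cKO mice in the same order. The groups overlapped, and the 95% interval of its log2 fold change of 0.05 ran from -0.08 to 0.18, the narrowest of the 10 genes (adjusted p = 0.692). Relb, the partner of p52 in the non-canonical pathway, had only 57 to 102 counts per library, or 4.36, 4.62 and 5.18 CPM in Ctrl and 7.15, 6.37 and 4.19 CPM in cKO mice. Mouse AI55 lay below every Ctrl mouse and the other two lay above, and the log2 fold change of 0.32 had a 95% interval from -0.19 to 0.82 (adjusted p = 0.472). The upper end of this interval is a 1.77-fold higher level, and the coefficient of variation was 26.0% among the libraries labelled cKO and 8.88% among the Ctrl libraries.

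**Figure D3:**
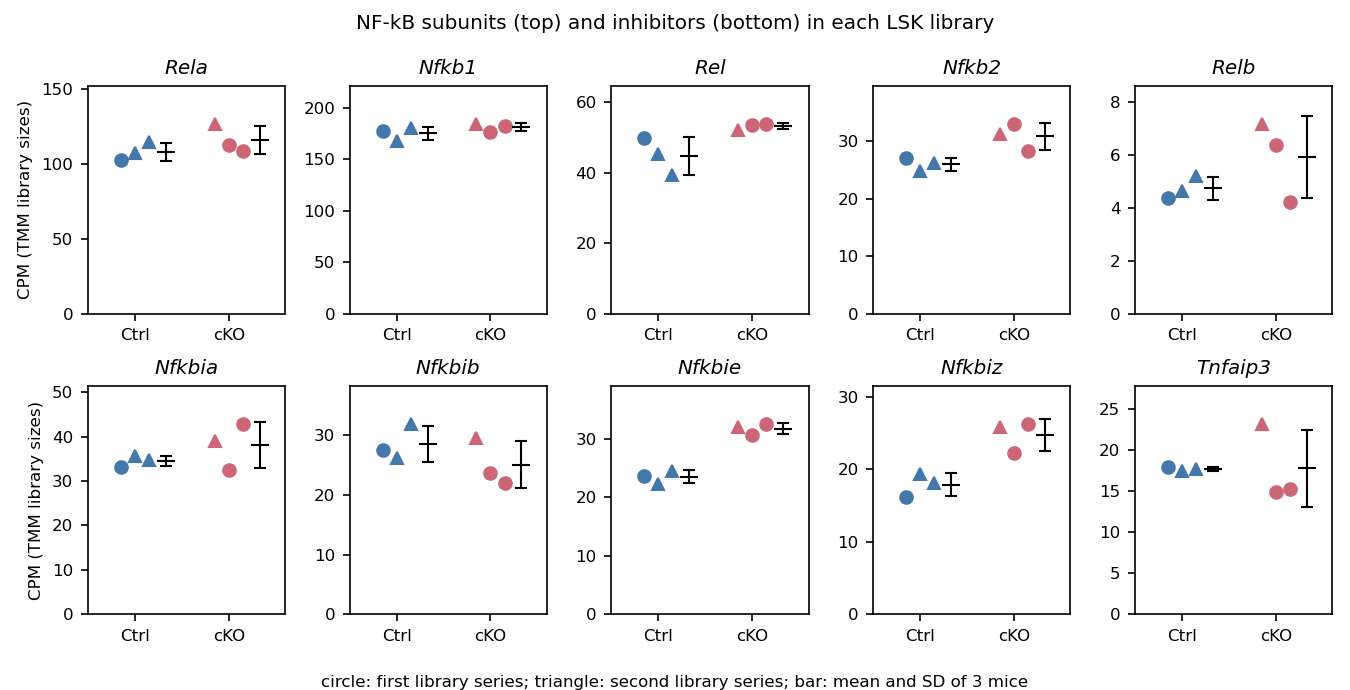
CPM of each member in every library (axes from 0), with Ctrl in blue, cKO in red, the first library series as circles and the second as triangles, and bars for the mean and SD of 3 mice. Red and blue points do not overlap for Rel, Nfkb2, Nfkbie and Nfkbiz, and the red triangle of Tnfaip3, mouse AH74 at 23.1 CPM, stands above the other libraries.

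**Figure D4:**
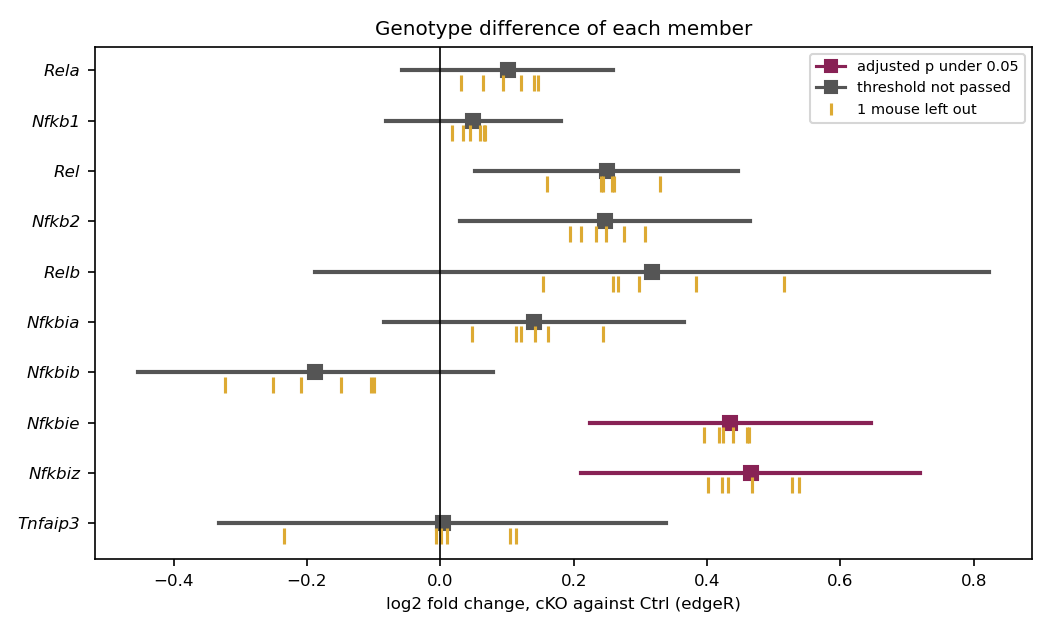
Log2 fold change (cKO against Ctrl, edgeR) of each member (squares) with its 95% interval (lines) and the values with 1 mouse left out (yellow ticks). The ticks of Nfkbie lie between 0.40 and 0.46 and those of Nfkbiz between 0.40 and 0.54, while those of Tnfaip3 fall on both sides of 0.

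Around the members, 128 other genes of the pathway were listed, of which 102 were tested. Of these, 3 were higher and 7 lower past the threshold, beside 3.88% higher and 3.79% lower among all genes tested. The median log2 fold change was 0.08. Of 11 ligands, 4 were tested, and none was called with edgeR, at an unadjusted p under 0.05 or with DESeq2. The ligands Il1a, Il33 and Cd40lg never exceeded 3 counts. Nor did the chemokine and cytokine genes Cxcl1, Cxcl2, Il12b and Ccl20 among the target genes. Of 20 tested receptors, 1 was higher and 2 were lower. Of 27 adaptors and ubiquitin ligases, 2 were higher and 1 was lower. None of 12 kinases was called with edgeR, 3 were higher and none lower at an unadjusted p under 0.05 (11.3% and 11.5% of all genes), and 1 was called higher with DESeq2. This was Map3k8, the kinase Tpl2 that binds p105, named after its values were seen (log2 fold change 0.60, adjusted p = 0.0506 with edgeR and 0.0442 with DESeq2). Of 21 other inhibitors 1 was lower. The list of target genes held 32 genes, of which 18 were tested. It left out the members, among them Nfkbie, a target that was called higher. Of the 18, none was higher with edgeR or DESeq2 and 3 were lower. At an unadjusted p under 0.05, 3 of these 18 were higher and 4 lower, beside 11.3% and 11.5% of all genes.

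Tnfrsf1a, the receptor TNFR1 that signals through NF-kB, was at 58.9, 69.7 and 63.7 CPM in Ctrl mice AI03, AI54 and AI56 and at 74.4, 85.1 and 81.3 CPM in cKO mice AH74, AI02 and AI55. The groups did not overlap (log2 fold change 0.32, SE 0.0826, adjusted p = 0.0276 with edgeR), and the difference was 0.50 in the first series and 0.16 in the second. The threshold was not passed without AI03, AI56, AI02 or AI55 (adjusted p = 0.0836, 0.0940, 0.113 and 0.111). Il1rl1, the IL-33 receptor ST2, was lower in every library labelled cKO, at 6.80, 6.50 and 8.83 CPM against 27.1, 20.6 and 26.2 CPM in Ctrl. Its log2 fold change of -1.73 (SE 0.158, adjusted p = 8e-06) was -1.82 in the first and -1.75 in the second series. Tlr7, an endosomal receptor for single-stranded RNA, was likewise lower, at 3.72, 5.36 and 6.29 CPM against 16.7, 16.6 and 8.77 CPM in Ctrl, without overlap (log2 fold change -1.45, SE 0.249, adjusted p = 0.00221, with -1.50 and -1.67 within the series). Both passed the threshold in all 13 alternative settings.

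Myd88, the adaptor of Toll-like and IL-1 receptors, was at 27.5, 40.0 and 34.1 CPM in Ctrl mice AI03, AI54 and AI56 and at 45.4, 48.0 and 46.1 CPM in cKO mice AH74, AI02 and AI55. The lowest library labelled cKO was above the highest Ctrl library (log2 fold change 0.45, SE 0.115, adjusted p = 0.0276, with 0.77 and 0.30 within the series). Its call was lost without any one mouse other than AI54 (adjusted p = 0.0727 without AI03, 0.0921 without AI56, 0.0623 without AH74, 0.0892 without AI02 and 0.0909 without AI55). Peli1, a ubiquitin ligase of this branch, was at 55.3, 50.5 and 44.0 CPM in the same Ctrl and at 72.0, 59.0 and 67.3 CPM in the same cKO mice, again with no overlap. The log2 fold change was 0.41 (SE 0.098, adjusted p = 0.0194, with 0.19 and 0.61 within the series) and did not pass without AI56, AH74 or AI55 (adjusted p = 0.104, 0.0902 and 0.0886). Traf3, a ubiquitin ligase adaptor that restrains the non-canonical pathway, was lower, at 72.5, 69.4 and 74.3 CPM against 88.5, 81.4 and 90.3 CPM in Ctrl (log2 fold change -0.27, SE 0.0722, adjusted p = 0.0362, with -0.30 and -0.24 within the series). The call of Traf3 was lost without AI03, AI56, AH74, AI02 or AI55 (adjusted p = 0.0808, 0.125, 0.0744, 0.127 and 0.0931). All 3 genes called higher around the members, Tnfrsf1a, Myd88 and Peli1, are like Map3k8 in the list of the study named above, and their direction is no independent evidence.

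Among the other inhibitors, Tnip3, an A20-binding protein, was lower, at 4.98, 4.69 and 4.64 CPM in cKO mice AH74, AI02 and AI55 against 8.04, 6.82 and 8.13 CPM in Ctrl mice AI03, AI54 and AI56. The groups did not overlap (log2 fold change -0.68, SE 0.195, adjusted p = 0.0463, with -0.77 and -0.57 within the series), and the call was lost with DESeq2 (adjusted p = 0.0546), with the series as a covariate (0.0652) and without AI03, AI56, AH74, AI02 or AI55 (0.0895, 0.131, 0.0878, 0.110 and 0.139).

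Of the target genes, Tnfaip2 was at 26.4, 26.4 and 28.5 CPM in the libraries labelled cKO and at 50.1, 39.8 and 56.7 CPM in Ctrl. Its log2 fold change of -0.85 (SE 0.118, adjusted p = 0.000464) was -0.87 and -0.85 within the series and passed in all 13 alternatives. Vcam1, which encodes an adhesion molecule, was at 1.96, 0.469 and 1.53 CPM against 4.44, 3.81 and 4.67 CPM, with no overlap between the groups (log2 fold change -1.70, SE 0.384, adjusted p = 0.0131, with -2.20 and -1.06 within the series). Without Ctrl mouse AI56 its adjusted p was 0.0569. Ccl5, a chemokine, was at 4.00, 4.02 and 3.24 CPM against 8.72, 8.44 and 4.80 CPM, without overlap (log2 fold change -0.96, SE 0.253, adjusted p = 0.0305, with -1.24 and -0.66 within the series). Its call was lost without AI03, AI54, AH74, AI02 or AI55 (adjusted p = 0.0835, 0.0966, 0.0663, 0.0654 and 0.129).

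Markers of cell types that a sort can carry along were counted too, beside 3.88% of all tested genes called higher and 3.79% lower. Of 11 mature myeloid markers, 7 were tested, and of these 4 were lower and 1 was higher in the libraries labelled cKO. The summed level of the 11 was 169 to 202 CPM in Ctrl and 131 to 174 CPM in cKO. Those lower were S100a8, S100a9, Csf1r and Ly6c2 (log2 fold change -1.96, -2.16, -0.70 and -1.56), and Itgam was higher (0.43). The neutrophil markers Ly6g and Camp never exceeded 3 counts, whereas S100a8 and S100a9 reached 39 and 33 counts. The T and NK cell markers summed to 65.2 to 78.5 CPM in Ctrl and 50.9 to 55.4 CPM in cKO with 1 of 4 tested lower, and Cd3e, Cd3d and Cd8a were at or under 3 counts throughout. The stromal and endothelial markers summed to 122 to 135 CPM in Ctrl and 106 CPM in all 3 cKO libraries with 2 of 4 tested lower and 1 higher, Lepr being at or under 3 counts. B cell markers (18.0 to 23.6 against 17.9 to 22.1 CPM), plasma cell markers (81.6 to 96.9 against 72.8 to 91.0 CPM) and dendritic cell markers (232 to 327 against 220 to 261 CPM) overlapped in sum, with 1 of the tested genes lower in each list. Most of the stromal and endothelial sum was Pecam1 (means of 116 CPM in Ctrl and 92.2 CPM in cKO). Most of the dendritic sum was Flt3 (249 and 200 CPM), which is also among the LSK markers. Nkg7 (48.4 and 26.8 CPM) was the largest of the T and NK cell markers. Among the LSK and stem cell markers, 3 of 10 were higher. The part of other cell types in the values of the NF-kB genes was not tested.

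**Figure D5:**
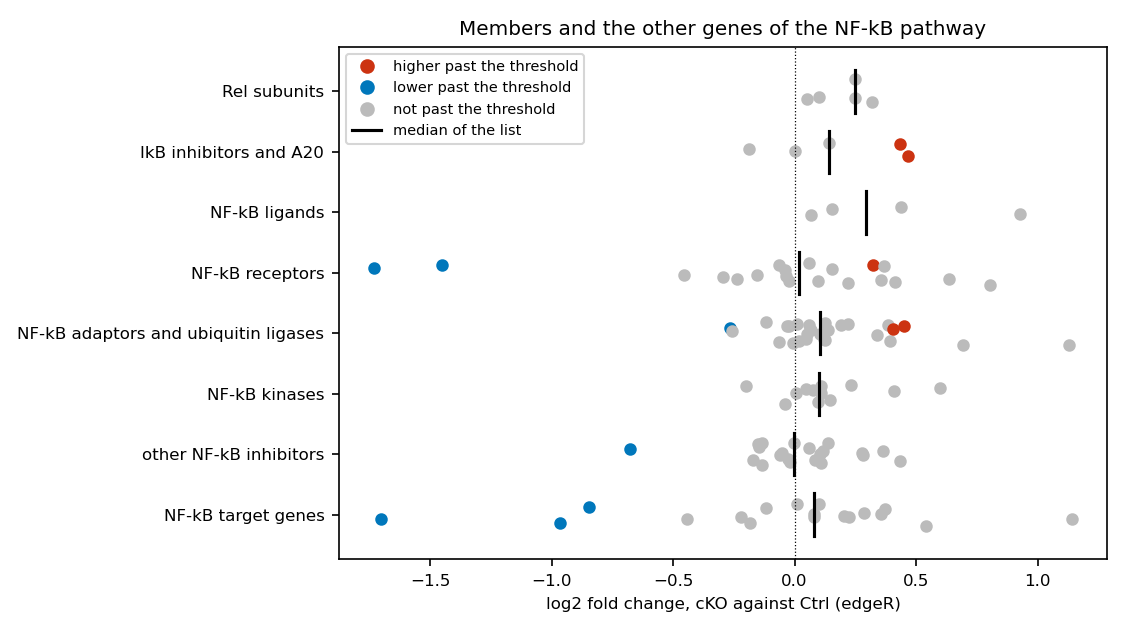
Log2 fold change (cKO against Ctrl, edgeR) of the tested genes in the lists of NF-kB subunits, inhibitors, ligands, receptors, adaptors, kinases, other inhibitors and target genes, each gene a point and each list a row, with the vertical bar at the median of the list. Red points, called higher, are Nfkbie, Nfkbiz, Tnfrsf1a, Myd88 and Peli1, and blue points, called lower, are Il1rl1, Tlr7, Traf3, Tnip3, Tnfaip2, Vcam1 and Ccl5.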

How the data were processed

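One RNA-seq library per mouse was made from LSK cells (3 Ctrl, 3 cKO). The authors aligned the reads to GRCm38 with GSNAP, and uniquely aligned reads were counted per gene on the strand of the gene with featureCounts 1.5.0 on Ensembl 81 models. The deposited values are these raw counts per mouse, not normalized. Symbols and overlaps came from GENCODE M21, matched by gene identifier, and promoters from RefSeq GRCm38.p6. No 2 libraries agreed within sampling noise.

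Counts were fitted with edgeR 4.0.16 in R 4.3.3 (TMM factors, filterByExpr, quasi-likelihood test, genotype as the only term). Benjamini-Hochberg adjustment was over 15184 genes, with a threshold of 0.05. The unadjusted 95% intervals used the prior plus residual degrees of freedom of this fit. DESeq2 1.42.0 was an alternative. CPM used TMM library sizes. TPM used the deposited exon length and no TMM factor. Values within a library series are differences of mean log2 CPM with a prior count of 2. P-values measure the spread between 3 mice per group. An exact permutation test of 3 against 3 cannot go below p = 0.1. The procedure was tested on simulated data.

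The members, gene lists and tests were chosen with earlier results of these data known. Named were all members, Setd1b, and in each other NF-kB list up to 3 genes with the smallest adjusted p among those past the threshold. Some of the markers and some of the genes at or under 3 counts are named, a choice made after their values were seen. Nfkb1 overlaps Gm43430 on its own strand, and Nfkb2 and Nfkbib overlap genes on the opposite strand. The alternatives were DESeq2, its size factors in edgeR, no filter or at least 10 counts in every library, the library series as a covariate, removal of mitochondrial genes and genes above 1% of a library, removal of the trend with gene length (loess, span 0.3), a threshold of 0.01, RPKM, and leaving out each mouse. Libraries held 13003573 to 21277519 counts.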

Additional observations from a re-analysis of the deposited data

How the results depend on the processing

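Nfkbie passed the threshold in 11 of 13 alternatives (log2 fold change 0.40 to 0.46, adjusted p 0.00614 to 0.0674) and Nfkbiz in 9 of 13 (0.40 to 0.54, adjusted p 0.00911 to 0.126), each missing it only where a mouse was left out. No other member passed in any of the 13. Of the 10 members, 0 to 2 were called higher with 1 mouse left out, 0 without cKO mouse AI55, and 0 at an adjusted p under 0.01. Removal of the length trend turned Nfkb1 to -0.0423. Tnfaip3 turned to -8e-04 with DESeq2's size factors, -4.9e-05 with DESeq2, -0.0637 without the length trend, and values from -0.2338 to 0.114 with 1 mouse left out, being -0.0065 when Ctrl mouse AI54 and -0.2338 when cKO mouse AH74 was dropped; the cause was not tested.

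Over all genes, 873 were lower with no filter on low counts, in which more genes were tested, and 241 were higher and 272 lower at 0.01. With 1 mouse left out, which leaves fewer samples, 296 to 531 were higher and 308 to 594 lower. Among the other pathway genes, 8 were higher with no filter, 0 were higher and 3 lower at 0.01, and 0 to 5 were higher and 4 to 6 lower with 1 mouse left out. The ranks of the members by level per length were the same by RPKM, which cannot check them because it uses the same counts and lengths. Vcam1 had no value with at least 10 counts required in every library. No paired analysis was possible because the labels give neither replicate numbers nor litters: the mice are named as littermates in the study, without saying which belong together.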

Other observations

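A match to the kB consensus lay in a RefSeq promoter of 41 of the 446 genes called higher in the libraries labelled cKO that had an entry (9.19%), Nfkbie among them, and of 18 of the 412 genes called lower (4.37%), against 6.10% of the 9846 tested genes with an entry. These shares are descriptions, and their difference was not tested.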
